A study of Mus musculus with 16 samples.

Results

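In bone marrow lacking the transcription factor Irf8, cells sorted as common monocyte progenitors (cMoPs) were compared with cells sorted as the monocyte-dendritic cell progenitors (MDPs) that come before them. The comparison used 4 arrays, 2 of Irf8KO cMoPs and 2 of Irf8KO MDPs, chosen by their sample titles from the 16 arrays of the study. Both groups were primary cells sorted from bone marrow of Irf8-deficient mice, without transduction or treatment, so the deletion was common to both. The other progenitor arrays, 2 of wild-type (WT) MDPs and 2 of WT cMoPs, gave the same step with Irf8 present and served as the control. The remaining 8 arrays were of 32Dcl.3 cells, a mouse myeloid progenitor line, transduced with empty vectors, C/EBPalpha, IRF8 or both. The sort gates, the strain, age and sex of the mice, and the number of mice per sample are not given in the sources used here. The study names 2 independent experiments, and whether each array stands for a separate animal is not stated, so p-values measure the spread between these arrays.

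IRF8 is a transcription factor that works with PU.1 and other partners to promote monocyte and dendritic cell fates, and it restrains the C/EBP family that drives granulocyte genes. MDPs carry the receptors Flt3, Csf1r and Cx3cr1 and can give rise to dendritic cells and monocytes, whereas cMoPs have lost Flt3 and yield monocytes. Neutrophil precursors first make the enzymes of primary granules, such as myeloperoxidase, and later, with C/EBPepsilon, the proteins of secondary and tertiary granules, such as lactoferrin and cathelicidin.

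From MDP to cMoP without Irf8, late neutrophil transcripts and Cebpe were gained, and progenitor, early lymphoid and several monocyte transcripts fell. S100a9 rose 234-fold, Camp at least 77.5-fold and Cebpe 3.88-fold. Dntt was 273-fold lower, Flt3 41.5-fold lower, Cx3cr1 15.7-fold lower and Lgmn, a lysosomal protease, at least 44.6-fold lower. In the WT step, S100a9 and Camp also rose but by much less, and Cebpe was not called. Falls of progenitor genes were also part of the WT step, in which Dntt changed by -5.20 and Flt3 by -4.37 on the log2 scale, each less than in Irf8KO. All arrays of MDPs were on 1 slide and all arrays of cMoPs on another, so cell type and slide cannot be told apart in either genotype. For that reason the results below lean on large changes, on detection above background and on the difference between the Irf8KO and WT steps, in which an effect added equally by the slide cancels.

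Levels are processed signals relative to the 75th percentile of their array, on the log2 scale, and a change is the cMoP mean minus the MDP mean. That percentile was 67.8 and 69.9 on the Irf8KO MDP arrays and 456 and 459 on the Irf8KO cMoP arrays. The share of probes well above background was 37.3% and 37.4% in Irf8KO MDPs and 44.2% and 44.8% in Irf8KO cMoPs, and no probe was saturated. Replicate arrays correlated at r = 0.995 in MDPs and 0.997 in cMoPs across genes, which are not independent replicates. Errors are standard errors (SE) from limma with a spread shared by the 8 progenitor arrays, 2 per group, and the number of arrays limits their precision. The Irf8 transcript was still measured on every Irf8KO array, at 7.44 and 7.43 in MDPs and 5.83 and 5.87 in cMoPs, so this probe does not check the knockout label.

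Of 11964 genes tested, 929 were called higher in Irf8KO cMoPs than in Irf8KO MDPs (7.76%) and 2606 lower (21.8%). A call required an adjusted p under 0.05 by limma with Benjamini-Hochberg adjustment, a change of at least 2-fold and detection on both arrays of the higher group. At 4-fold or more, 287 genes were higher (2.4%) and 340 lower (2.84%), and by adjusted p alone 19.8% of all genes were higher and 63.4% lower. The median change of all genes was -0.51. The shares of 7.76% higher and 21.8% lower are the background against which each list's counts are given. The share of rises among calls was 26.3%, and it moved with the scaling of the arrays to 7.56% with the array median, 69.3% with the percentile taken over probes detected on all 8 arrays, 43.0% with quantile normalization, 37.5% after normexp background correction and 63.9% when centred on the median of the tested genes. Under all 7 scalings, 160 genes were called higher and 606 lower. Genes near the threshold included Fryl at 1.0005, just inside, and Lysmd3 at 0.9991, just outside.

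**Figure D1:**
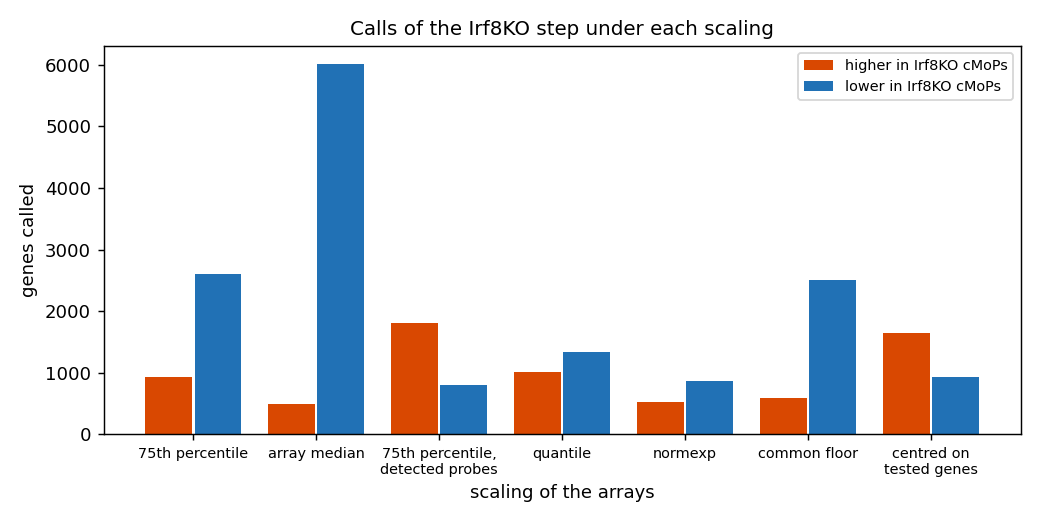
Number of genes called higher (orange) or lower (blue) in Irf8KO cMoPs than in Irf8KO MDPs under 7 scalings of the arrays, with the scaling on the x axis and the count of genes on the y axis, which starts at 0. The falls range from 800 to 6004 and the rises from 491 to 1810, so the totals depend on the scaling.

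Detection gives a view that needs no fold. On all 4 Irf8KO arrays 10386 genes were detected, 729 were detected on both cMoP arrays and on neither MDP array, and 195 on both MDP arrays and on neither cMoP array. In the WT step the corresponding numbers were 438 and 209, and 292 gains and 65 losses occurred in both genotypes. The share of all probes detected was also larger on the cMoP arrays, and its part in the gains was not tested.

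Genes of late neutrophil maturation, including secondary and tertiary granule proteins, had the highest median change of the lists, apart from 3 sex-linked transcripts described further on. Of its 26 genes, 18 were tested, 10 were called higher and 2 lower, beside 7.76% and 21.8% of all genes. The median change of the 18 was 1.80, against -0.51 for all genes. Under the 6 other scalings the list had 10 genes higher and 1 or 2 lower, with a median between 1.75 and 2.47 above that of all genes. In the WT step 8 of the 18 were called higher and 4 lower, beside 5.5% and 18.8% of all genes. The WT median of the 18 was -0.08, against -0.50 for all genes.

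S100a9, which encodes a calcium-binding subunit of calprotectin, was at -0.46 and -0.26 on the Irf8KO MDP arrays and at 7.45 and 7.57 on the Irf8KO cMoP arrays. Both cMoP arrays lay above both MDP arrays, as in 24% of all tested genes. The change was 7.87 ± 0.08 (SE, n = 2 per group; limma adjusted p = 7.54e-13), and the gene moved from rank percentile 25.2 to 98.2 of the tested genes. Its partner S100a8 was already high in Irf8KO MDPs, at 5.13 and 5.16, and reached 8.43 and 8.46 in cMoPs. It rose by 3.30 ± 0.06, so the calprotectin subunits did not rise by the same amount.

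Camp encodes the antimicrobial peptide cathelicidin, a secondary granule protein. It was not well above background on either Irf8KO MDP array, at -3.83 and -3.89, and stood at 3.59 and 3.76 in Irf8KO cMoPs. Since the MDP level is only a bound, the rise was at least 77.5-fold, where the bound sets the cMoP mean against the faintest signal counted as well above background. Ltf, which encodes lactoferrin, went from -4.59 on both MDP arrays to 0.31 and 0.24 on the cMoP arrays, at least 7.32-fold. Ngp, a neutrophilic granule protein, went from -3.81 and -4.62 to 0.75 and 0.74, at least 10.1-fold. In all 3 genes both cMoP arrays exceeded both MDP arrays, an order shown by 24% of all tested genes. Detection was confined, within the Irf8KO arrays, to cMoPs.

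Chil3, a chitinase-like secreted protein, rose by 4.41 ± 0.04, from 3.14 and 3.18 to 7.56 and 7.59. Wfdc21, a whey acidic protein domain gene, rose by 4.19 ± 0.07, and Cd177, a neutrophil surface protein, by 2.29 ± 0.20. Lcn2, which encodes the iron-siderophore binding protein lipocalin 2, rose by 1.88 ± 0.08, from 3.48 and 3.47 to 5.36 and 5.35. Mcemp1, a membrane protein of myeloid cells, rose by 1.72 ± 0.05. In each of these 5 genes both cMoP arrays exceeded both MDP arrays, an order shown by 24% of all tested genes.

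The list did not move as a block. Mmp8, the neutrophil collagenase, changed by -3.97 and Ifitm6 by -1.36, and both fell, the call for Ifitm6 being lost under 3 of the 6 other scalings. Pglyrp1, Anxa1, Ltb4r1, Padi4, Hp and Cxcr2 were not called, with changes between -0.42 and 0.45. Of the other list members, Mmp9, Retnlg, Itgb2l, Fpr1, Stfa1, Stfa2 and Stfa3, several of them markers of mature neutrophils, were not well above background on both arrays of any progenitor group. The summed signal of the tested members, in multiples of the array's 75th percentile, was 637 to 638 in Irf8KO MDPs and 1312 to 1361 in Irf8KO cMoPs. In bulk samples, more cells of a type and more RNA per cell cannot be told apart, and the part played by neutrophil-lineage cells in the sorted cMoPs was not tested.

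**Figure D2:**
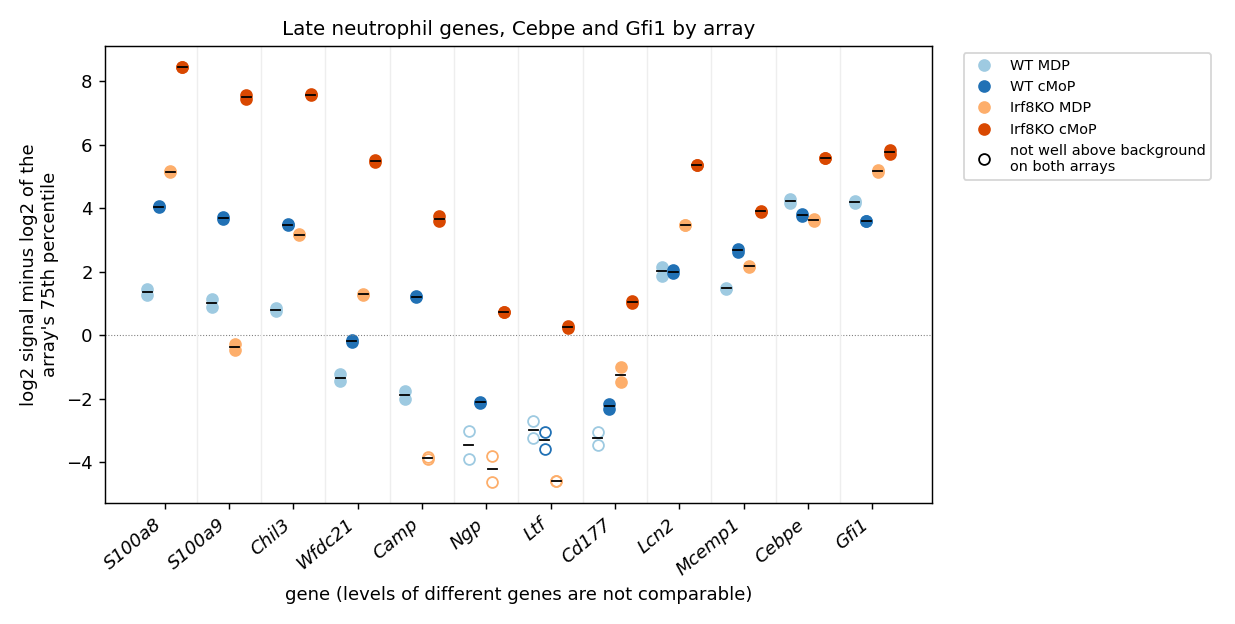
Level on each array (y axis, log2 signal relative to the array's 75th percentile) of 10 late neutrophil genes, Cebpe and Gfi1 in the 4 progenitor groups, with a bar at the mean of 2 arrays and open circles where a gene was not well above background on both. Irf8KO cMoPs (dark orange) are the highest group for each gene shown, and Irf8KO MDPs lack detected Camp, Ngp and Ltf.

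The promoters of the late neutrophil genes that rose were searched because C/EBP factors are known activators of granule genes. Those with a match, and that of Camp, are shown. The motif TTGCNNAA, a C/EBP-like sequence searched on both strands in the 250 bases before the annotated start, was present in 9.38% of tested genes with an entry, 13.2% of genes called higher and 9.09% of genes called lower. Among the 10 late neutrophil genes called higher, 9 had an entry and 4 held a match, namely S100a9, Ltf, Lcn2 and Ngp. Camp, S100a8, Chil3, Cd177 and Mcemp1 held no match. The composite ETS and IRF motif (GGAA and GAAA in 1 orientation with 2 bases between, both strands) was found in 2.41% of tested genes, 2.46% of those called higher, 1.91% of those called lower and none of the 9. A match is a description of the letters and not a bound site. The windows below are from RefSeq on GRCm38.p6, 5′ to 3′ on the gene's strand, with the motif match in capitals. S100a9 lies at chr3:90695722-90695971 on the minus strand, Ltf at chr9:111019042-111019291 on the plus strand, Lcn2 at chr2:32387740-32387989 on the minus strand, Ngp at chr9:110419558-110419807 on the plus strand and Camp, which had no match, at chr9:109849457-109849706 on the minus strand.
S100a9: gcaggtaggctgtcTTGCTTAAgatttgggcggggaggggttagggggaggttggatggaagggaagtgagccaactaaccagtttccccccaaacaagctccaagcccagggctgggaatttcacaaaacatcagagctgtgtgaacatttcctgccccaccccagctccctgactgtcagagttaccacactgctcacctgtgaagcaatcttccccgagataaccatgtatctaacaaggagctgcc
Ltf: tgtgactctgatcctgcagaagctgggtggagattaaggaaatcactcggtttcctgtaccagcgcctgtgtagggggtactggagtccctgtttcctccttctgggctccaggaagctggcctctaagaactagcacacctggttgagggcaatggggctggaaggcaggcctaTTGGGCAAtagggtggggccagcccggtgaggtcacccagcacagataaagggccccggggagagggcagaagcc
Lcn2: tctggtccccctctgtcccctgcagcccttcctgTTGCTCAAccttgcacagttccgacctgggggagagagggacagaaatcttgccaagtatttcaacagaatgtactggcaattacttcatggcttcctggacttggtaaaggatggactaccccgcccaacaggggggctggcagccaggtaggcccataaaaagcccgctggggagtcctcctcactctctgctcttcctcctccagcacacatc
Ngp: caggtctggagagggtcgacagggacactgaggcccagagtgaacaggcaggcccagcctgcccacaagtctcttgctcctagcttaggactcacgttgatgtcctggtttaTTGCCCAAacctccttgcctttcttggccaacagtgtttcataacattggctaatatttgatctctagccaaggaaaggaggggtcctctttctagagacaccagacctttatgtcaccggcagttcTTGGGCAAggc
Camp: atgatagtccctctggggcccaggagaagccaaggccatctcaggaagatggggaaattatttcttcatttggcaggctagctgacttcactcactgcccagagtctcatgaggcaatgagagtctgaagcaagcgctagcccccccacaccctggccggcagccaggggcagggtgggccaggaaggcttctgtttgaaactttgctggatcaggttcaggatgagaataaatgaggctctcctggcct
The matches in S100a9, Ltf and Lcn2 begin 236, 75 and 216 bases before the start, and Ngp has matches at 138 and 11 bases.

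Among the factors and receptors of granulocytes, 4 of 9 were called higher and none lower, beside 7.76% and 21.8% of all genes, and 1 to 5 were higher under the 6 other scalings. Cebpe, the C/EBP member that late granule genes depend on, was at 3.66 and 3.60 in Irf8KO MDPs and at 5.57 and 5.60 in Irf8KO cMoPs. All cMoP values lay above all MDP values, as in 24% of all tested genes, and the change was 1.96 ± 0.04 (limma adjusted p = 7.52e-11). Csf3r, the receptor for G-CSF, rose by 1.01 ± 0.04, and Clec5a, a myeloid lectin, by 1.39 ± 0.35. The call for Csf3r was lost with array median scaling and without the first Irf8KO cMoP array, and that for Clec5a with array median scaling and after normexp. Il1r2, a decoy receptor for interleukin-1, was detected in cMoPs and not in MDPs and changed by 1.22, but by -0.34 after normexp correction, and its call was lost under 4 of the 6 other scalings.

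Gfi1, a repressor needed for neutrophil development, changed by 0.60 ± 0.04 and was not called at 2-fold, although it passed in 4 of the 6 other scalings. Cebpa changed by 0.12 ± 0.04, Cebpb by 0.21 and Cebpd by 0.37, and none was called. The change in the C/EBP family was therefore uneven, with Cebpe and Cebpg (1.19) called higher. Cebpg was not called with array median scaling.

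Primary granule genes, which precede the late ones, did not follow them. Of 9 tested, 1 was called higher and 1 lower, beside 7.76% and 21.8% of all genes. Mpo, the myeloperoxidase gene, was at 11.43 on both Irf8KO MDP arrays and at 9.94 and 9.90 in cMoPs, a change of -1.51 ± 0.05. Elane and Prtn3, granule serine proteases, changed by -0.35 and -0.29, and Ctsg by -0.86, none of them called. Gstm1, a glutathione transferase, rose by 1.08. The calls for Mpo and Gstm1 were lost under some scalings, among them quantile normalization for Mpo and the array median for Gstm1.

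Receptors that define the progenitors fell sharply, and genes of stem and early progenitor cells fell with them. Of 19 stem and early progenitor genes tested, none was called higher and 10 were lower (21.8% of all genes), with a median of -1.70. In the WT step 14 of the 19 were lower (18.8% of all genes), with a median of -1.64. The count of falls was 9 to 13 under the 6 other scalings. Of the 7 tested stage and sort markers, 4 were called lower, beside 21.8% of all genes. Several of these receptors are commonly used to sort such cells, and the part of the gates in these changes was not tested.

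Flt3, the receptor that supports dendritic cell progenitors, was at 4.76 and 4.74 on the Irf8KO MDP arrays and -0.66 and -0.58 on the cMoP arrays. Both cMoP arrays lay below both MDP arrays, as in 67.8% of all tested genes, and the change was -5.37 ± 0.05 (limma adjusted p = 6.85e-13). Cx3cr1, the fractalkine receptor, went from 5.35 on both arrays to 1.31 and 1.46, a change of -3.97 ± 0.05. Cd34, a sialomucin of progenitors, went from 6.70 and 6.65 to 3.69 and 3.73, and changed by -2.96 ± 0.03. Csf1r, the receptor for M-CSF, changed by -1.43 ± 0.03 and stood at rank percentile 95.5 in cMoPs. Its call was lost with the percentile over detected probes, quantile normalization, normexp, centring and the mean of probes, and 1 of its 3 probes moved the other way. Kit changed by -0.53, Ly6c1 by -0.27 and Itgam by 0.53, none of them called, and the MDP and cMoP receptors Kit and Csf1r were detected on every Irf8KO array.

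Meis1, a homeobox factor of stem cells, changed by -4.37 ± 0.10, and Angpt1, a ligand of the Tie2 receptor, by -5.14 ± 0.32. Angpt1 was not detected on either cMoP array, so its fall was at least 10.9-fold. Egfl7 changed by -3.89, Hoxa7 by -2.94, Sox4 by -2.29 and Eng by -2.12, and all 4 were called. Myb, Hoxa9 and Hlf were not called and changed by -0.15, -0.75 and -0.41.

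Early lymphoid transcripts were among the deepest falls. Dntt, which encodes terminal deoxynucleotidyl transferase, was at 6.16 and 6.12 in Irf8KO MDPs and at -2.02 and -1.88 in Irf8KO cMoPs. No other gene detected on all 4 Irf8KO arrays fell as far, with a change of -8.09 ± 0.09. Il7r, the interleukin-7 receptor chain, changed by -5.74 ± 0.40, at least 11.45-fold lower. Rag2, a recombinase subunit, changed by -3.95 ± 0.30 and was not detected in cMoPs. Vpreb1, a surrogate light chain, changed by -2.27 and Cd79b, a signalling chain of the B-cell receptor, by -1.62, a call lost after normexp. Klrd1, an NK-cell receptor chain, changed by -4.62 and was not detected in cMoPs. In all, 3 of 5 tested B-cell genes and 3 of 8 T- and NK-cell genes were called lower and none higher, beside 21.8% and 7.76% of all genes. In the WT step 3 and 2 were lower, beside 18.8% of all genes. Cd79a, Pax5, Cd3d and Ncr1, also lymphoid genes, were not well above background on both arrays of any progenitor group. Other members were detected. All 8 tested T- and NK-cell genes, Cd3e and Lck among them, were detected on both Irf8KO MDP arrays, and 5 on both Irf8KO cMoP arrays. Of the 5 tested B-cell genes, 4 were detected on both Irf8KO MDP arrays and 3 on both Irf8KO cMoP arrays. The part played by lymphoid cells in the sorted samples was not tested.

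**Figure D3:**
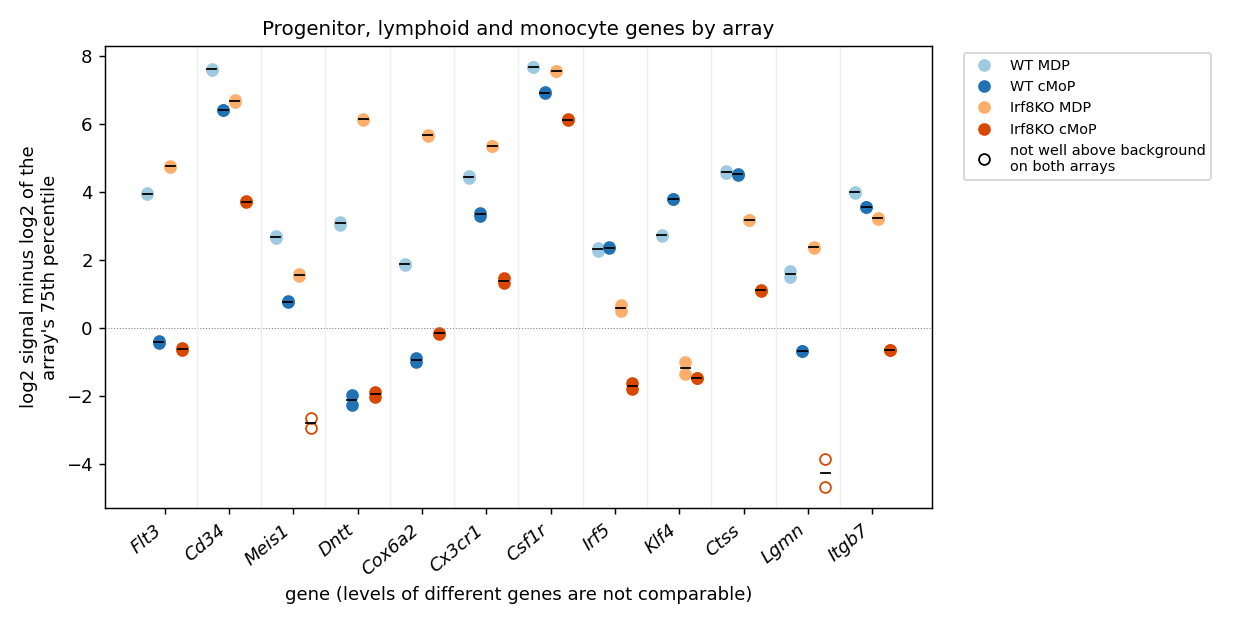
Level on each array (y axis, log2 signal relative to the array's 75th percentile) of 12 progenitor, lymphoid and monocyte genes in the 4 progenitor groups, with a bar at the mean of 2 arrays. Flt3 and Dntt fall in both genotypes, while Irf5, Ctss and Itgb7 fall from MDP to cMoP in Irf8KO (orange) and stay near their level in WT (blue).

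Monocyte and macrophage genes were lowered in part. Of 21 tested, 2 were called higher, a share near the 7.76% of all genes, and 9 lower, beside 21.8% of all genes. The median was -0.68, and the number of falls ranged from 5 to 12 under the 6 other scalings. Irf5, an interferon regulatory factor of macrophages, was at 0.66 and 0.50 in Irf8KO MDPs and -1.61 and -1.79 in cMoPs, a change of -2.28 ± 0.08. Ly86, a partner of the receptor Cd180, changed by -1.58, a call lost with a common floor, and Slc11a1, a phagosomal metal transporter, by -1.20, a call lost under 2 scalings. Pou2f2 and Nr4a1, a regulator of non-classical monocytes, changed by -2.27 each. The 2 rises were Tgfbi, an extracellular matrix protein of monocytes, at 1.45 ± 0.05, and Lgals3, a galectin, at 1.42, both lost with array median scaling.

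Klf4, a factor of monocyte development, was at -0.997 and -1.36 in Irf8KO MDPs and -1.49 and -1.47 in Irf8KO cMoPs and was not called. In WT cells it was at 2.74 and 2.71 in MDPs and rose to 3.80 and 3.78 in cMoPs. The WT arrays were thus above all Irf8KO arrays at both stages, and a rise passed the test in WT. Adgre1, Cd14 and Ccr2 changed by 0.12, -0.36 and -0.45 and were not called. C1qa, C1qc, Fcgr1 and Maf, markers of mature macrophages, were not well above background on both arrays of any progenitor group. C1qb, the remaining C1q chain, did pass that filter, changed by -0.06 and was not called.

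Of 15 tested genes of the C/EBP and IRF families, 2 were called higher and 6 lower, beside 7.76% and 21.8% of all genes. The number lower ranged from 3 to 8 under the 6 other scalings. Of the IRF family, Irf4 changed by -3.04 ± 0.58, Irf7 by -1.70, Irf8 itself by -1.58, Irf9 by -1.06 and Irf3 by -1.02, and all 5 were called lower with Irf5. Irf1 and Irf2 were not called, at -0.81 and -0.74. Irf4, a factor of dendritic cells, was not detected on both cMoP arrays, at -3.12 and -4.88. The call for Irf8 was lost after normexp correction, and those for Irf9 and Irf3 were lost under 4 of the 6 other scalings. Of 12 dendritic cell genes tested, 2 were called lower and 1 higher, beside 21.8% and 7.76% of all genes. The falls were Irf4 and Itgax, the integrin CD11c, at -3.09. The rise was Siglech, a lectin of plasmacytoid dendritic cells, by 1.52 with its brightest probe. Siglech changed by -1.10 with the mean of its probes, since 1 of its 2 probes moved the other way.

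MHC class II genes, which load and present peptides, and their chaperones were called lower in 5 of 9 cases and higher in none, beside 21.8% and 7.76% of all genes. In the WT step 6 of 9 were lower, beside 18.8% of all genes. H2-Ab1, a class II chain, went from 4.70 and 4.77 to 2.85 on both cMoP arrays, a change of -1.88 ± 0.04. H2-Oa changed by -2.21, H2-Ob by -2.47 and H2-DMa by -2.19. Among lysosomal genes, 4 of 24 were lower and 3 higher, shares near those of all genes (21.8% and 7.76%). Lgmn, the asparaginyl protease legumain, was at 2.39 and 2.36 in Irf8KO MDPs and was not detected in cMoPs, so it was at least 44.6-fold lower. Ctss, which encodes cathepsin S, went from 3.18 and 3.19 to 1.09 and 1.12, a change of -2.08 ± 0.04. Gla, alpha-galactosidase, rose by 1.78 ± 0.07, Cd63, a granule and lysosome membrane protein, by 1.39 and Npc1, a cholesterol transporter, by 1.26, the last 2 not with array median scaling. The falls ranged from 2 to 12 under the other scalings.

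Of 21 pattern recognition and Fc receptor genes, which serve innate sensing, 2 were higher and 6 lower, shares near the 7.76% and 21.8% of all genes. Under the 6 other scalings 0 to 5 were higher and 1 to 8 lower. Ly96, the partner of Tlr4, changed by -1.34, Tlr2 by -1.46, Fcer1g, a signalling chain, by -1.31 and Tyrobp by -1.26. The calls for all 4 were lost under several alternatives, the percentile over detected probes and normexp among them. Of 6 NADPH oxidase subunits, Cybb, the membrane subunit of the phagocyte oxidase, rose by 1.63 ± 0.07 and the other 5 were not called. Itgb7, an integrin chain, went from 3.24 and 3.20 to -0.64 and -0.65, a change of -3.86 ± 0.04, and S100a4, a calcium-binding protein, changed by -2.57 ± 0.06.

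Interferon-stimulated genes were called lower in 17 of 28 cases and higher in none, beside 21.8% and 7.76% of all genes, with a median of -1.15. The falls were 9 to 24 under the 6 other scalings. Ifi27l2a changed by -3.24, Rtp4 by -2.82, Oasl2 by -2.27 and Bst2, an antiviral tetherin, by -2.18. The WT step had the same count of falls, 17 of 28, beside 18.8% of all genes, with a median of -1.39.

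The counts of falls in the cell cycle and biosynthesis lists depended on the scaling. For mitosis genes, 12 of 24 were called lower and 1 higher, beside 21.8% and 7.76% of all genes. The number lower fell to 1 after normexp and rose to 19 with array median scaling. Their median lay below that of all genes under every scaling, at -0.52 to -0.16 relative to it. In the WT step 2 of the 24 were lower and 1 higher, beside 18.8% and 5.5% of all genes. Their WT median was -0.43, near the -0.50 of all genes. The median difference, Irf8KO minus WT, was -0.48, no single difference was called, and the cause was not tested. Ccnb1, cyclin B1, changed by -1.94 ± 0.04, and Ube2c, a ubiquitin-conjugating enzyme of mitosis, by -1.74, a call lost after normexp. Of 27 DNA replication genes, 5 were lower, a share near the 21.8% of all genes, and the number ranged from 0 to 20 over the other scalings. The 20 nucleolar genes had 7 lower, beside 21.8% of all genes, the range being 0 to 15. The 18 glycolysis and pentose phosphate genes had 4 lower, a share near that of all genes, the range being 0 to 12. The medians of the mitosis, replication, nucleolar and glycolysis lists, at -1.01, -0.65, -0.74 and -0.79, stood within 0.50 of the median of all genes. Of 20 cholesterol and fatty acid synthesis genes, 2 were called higher and 5 lower, shares near those of all genes, with ranges of 0 to 5 and 0 to 9 over the other scalings. Cdkn1a, the cell cycle inhibitor p21, changed by -2.64 ± 0.07.

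Markers of other blood lineages moved in both directions and mostly at low signal. Of 12 basophil, mast cell and eosinophil genes, 3 were called higher and none lower, beside 7.76% and 21.8% of all genes, with Mcpt8, a basophil protease, at 1.16 ± 0.08 and Epx, eosinophil peroxidase, at 1.05. Both calls were lost with array median scaling, and that for Epx also after normexp and without the first array of either Irf8KO group. Ear2, an eosinophil ribonuclease with close gene copies, changed by 2.35 but by -0.42 after normexp correction. Prg2, Prg3, Cpa3, Fcer1a, Ear1 and Gata1 were not well above background on any Irf8KO array. The summed signal of this list was 42.5 to 42.7 in Irf8KO MDPs and 35.2 to 36.1 in Irf8KO cMoPs. Of 8 erythroid genes 3 were higher and 1 lower, beside 7.76% and 21.8% of all genes. Hba-a2 and Car1 changed sign after normexp correction (-0.44 and -0.15). Hba-a2 shares nearly all its sequence with Hba-a1, so the haemoglobin chains are uncertain. The summed signal of the erythroid list was 5.68 to 6.03 and 7.27 to 7.38. Of 6 megakaryocyte genes, Pf4, platelet factor 4, changed by -5.14 and Vwf by -1.47, and both fell, though Vwf was not called after normexp or with the percentile over detected probes. Their part in the results above was not tested.

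**Figure D4:**
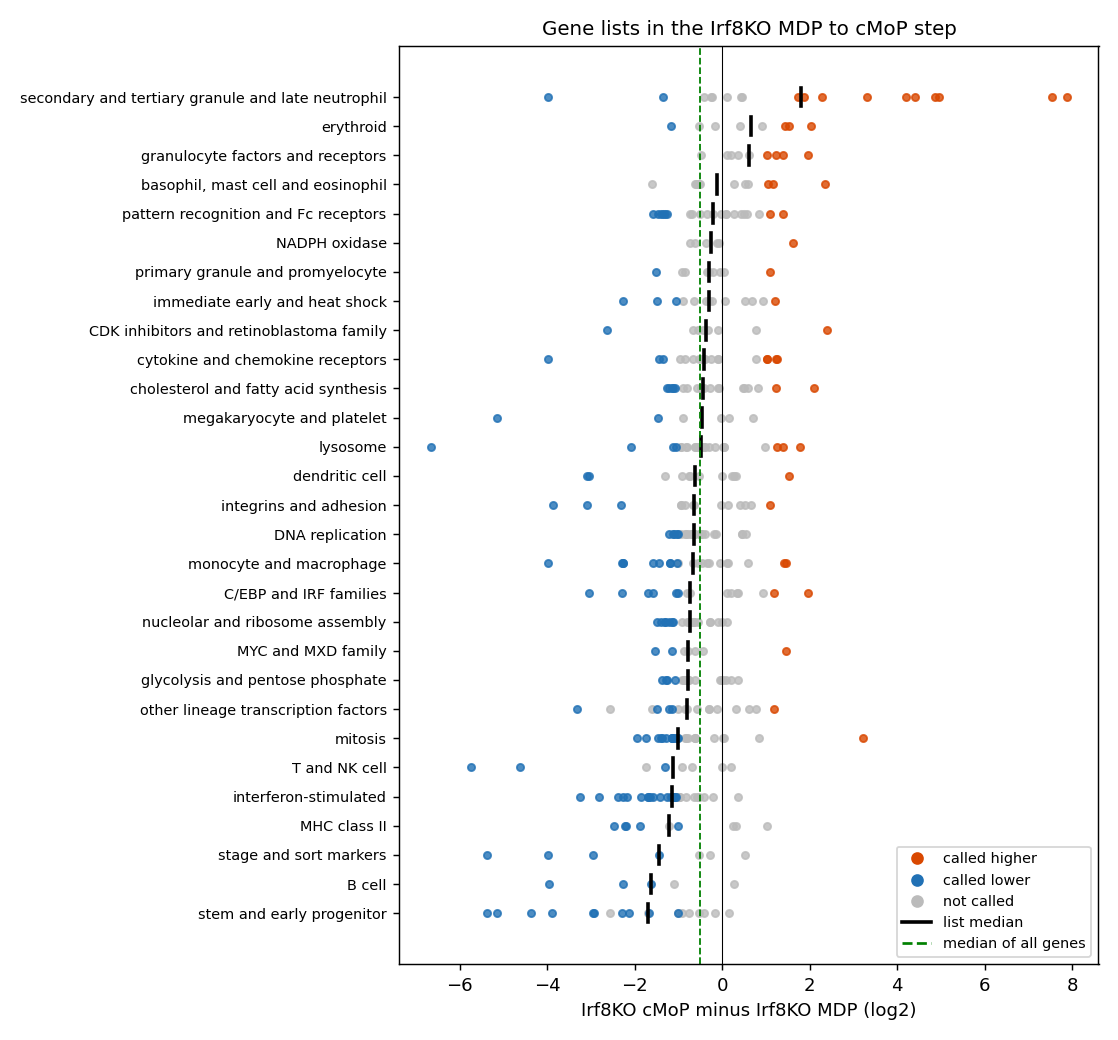
Change from Irf8KO MDP to Irf8KO cMoP (x axis, log2) of each tested gene in 29 gene lists (y axis, ordered by median), with the list median as a black bar and the median of all genes as a dashed line at -0.51. The late neutrophil list has the highest median, at 1.80, and the stem and early progenitor list the lowest, at -1.70.

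The largest rises outside the neutrophil genes were shared with the WT step. Of the 12 largest rises among genes detected on all 4 Irf8KO arrays, all 12 were also called higher in WT, and the difference between genotypes was called for 2, S100a9 and Chil3. Pnma2 rose by 6.07 in Irf8KO and 5.46 in WT, Ermn by 5.69 and 5.58, Rab3c by 4.81 and 4.71 and Gab3 by 4.74 and 4.71. Akap7 rose by 5.38 and 4.56 with its brightest probe, while 2 of its 3 probes moved the other way. Of the 12 largest falls, 11 were also called lower in WT, and the difference between genotypes was called for 11, each with the deeper fall in Irf8KO. They included Cox6a2, a cytochrome oxidase subunit, at -5.83 against -2.81 in WT, and Tspan13 at -4.64 against -2.55. Both sets of 12 were picked by their Irf8KO change, a choice that favours larger changes in Irf8KO than in WT.

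Transcripts of the sex chromosomes changed alongside cell type. Eif2s3y changed by 7.56 and Ddx3y by 6.34, Xist by -5.76, and in WT by 7.79, 6.53 and -5.75. Eif2s3y and Ddx3y were not well above background on both Irf8KO MDP arrays, nor Xist on both Irf8KO cMoP arrays, so these sizes are not exact. With a common floor the Irf8KO changes of Eif2s3y, Ddx3y and Xist were 5.34, 4.29 and -3.10. The difference between the steps was not called for any of these 3 transcripts, and donor sex, slide and cell type cannot be told apart for any single change.

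The Irf8KO step resembled the WT step in outline. The 2 comparisons share no array and share both slides, and their changes correlated across the 11964 genes at r = 0.846, over genes, which are not independent. In WT, 658 genes were called higher (5.5%) and 2254 lower (18.8%). Of the genes called higher in Irf8KO, 506 (54.5%) were also called higher in WT, which is 76.9% of the WT calls. Of those called lower, 1720 (66.0%) were also lower in WT, which is 76.3% of the WT calls.

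The difference between the steps, tested in the same fit, was positive for 235 genes (1.96%) and negative for 254 (2.12%), each at an adjusted p under 0.05 by limma and at least 1 on the log2 scale. With array median scaling the split was 178 and 451, so the share of positive differences moved from 48.1% to 28.3%. Leaving out the second Irf8KO MDP array gave 396 negative differences. Of the 18 late neutrophil genes 10 had a positive difference and 1 a negative one. S100a9 rose by 2.67 in WT, Camp by 3.09, Ngp by 1.34 and Wfdc21 by 1.15, each less than in Irf8KO. Ltf changed by -0.34, Lcn2 by -0.01 and Cebpe by -0.43 in WT, none of them called. S100a8 rose by 2.68 in WT and 3.30 in Irf8KO, and this difference of 0.62 was under the size required for a call.

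Genes whose fall was steeper without Irf8 included Cx3cr1, which changed by -1.10 in WT, Itgb7 (-0.43), Ctss (-0.08), Irf5 (0.06) and Lgmn (-2.27). S100a4 changed by 0.70 in WT and by -2.57 in Irf8KO. Of 21 monocyte and macrophage genes 5 had a negative difference (2.12% of all genes) and none a positive one. Of 12 basophil, mast cell and eosinophil genes 8 had a positive difference (1.96% of all genes). In that list the WT step held the larger changes, with Prg2 at -6.52, Ear1 at -3.75, Cpa3 at -3.69 and Fcer1a at -3.13, while these 4 genes were not well above background on any Irf8KO array and their difference has no measured Irf8KO level in it.

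**Figure D5:**
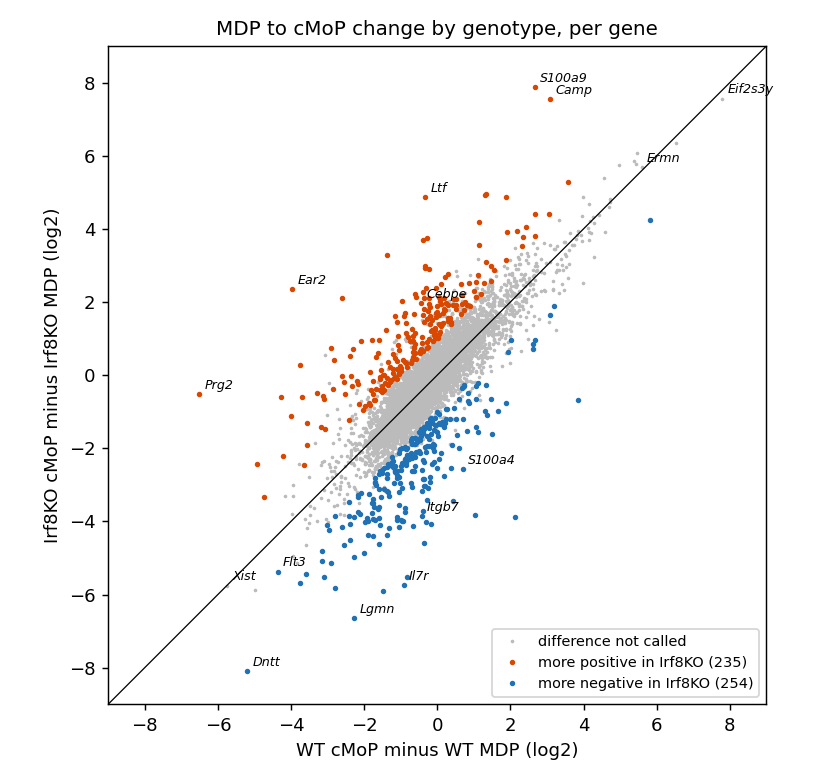
Change from MDP to cMoP in WT (x axis, log2) against that in Irf8KO (y axis, log2) for each of 11964 genes, with the line of equality and genes whose difference was called in orange (235) or blue (254). S100a9, Camp and Ltf lie above the line, Lgmn, Il7r and Itgb7 below it, and Ermn, Eif2s3y and Xist near it.

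In 32Dcl.3 cells, on separate arrays, C/EBPalpha against empty vectors 3 days after transduction raised 10.4% and lowered 12.2% of the genes tested there. Of 11209 genes measured in both systems, 8.98% were called higher with C/EBPalpha and 12.5% lower. Of 839 genes called higher in the Irf8KO step, 177 (21.1%) were higher with C/EBPalpha and 32 (3.81%) lower. Of 2338 genes called lower in the Irf8KO step, 422 (18.05%) were lower with C/EBPalpha and 139 (5.95%) higher. These shares are a description, with no test of the overlap.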

How the data were processed

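Single-colour Agilent arrays measured 16 samples in 8 groups of 2. The deposited scanner files hold background-subtracted intensity values from Agilent Feature Extraction 10.7.3.1 (protocol GE1_107_Sep09, mouse build mm9), per the file headers. Deposited beside them are other values, 0/1 flags for detection above background, for saturation and for outliers. For the progenitor arrays, a deposited table of the whole series holds the same intensity values after rescaling by a nearly constant factor per array. For the arrays of the transduced cell line, the ratio of table values to scanner values varied between probes, so those values were not simply rescaled. RNA came from the RNeasy Micro Kit and was labelled by Low Input Quick Amp Labeling, per the labels. No array was normalized to another in the scanner files.

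Here, outlier spots were left out, spots of a probe averaged, and signals divided by their array's 75th percentile before log2 was taken. Detection of a probe needed the above-background flag on a share of its spots over 0.5. Probes detected on both arrays of any of the 4 progenitor groups were kept. The brightest probe stood for a gene. Symbols came from RefSeq accessions: of 55681 probes, 26762 matched 1 symbol, 28919 none and 0 several. limma 3.58.1 (R 4.3.3, data.table package at version 1.17.8) fitted 4 group means over 8 arrays by lmFit and eBayes with an intensity trend, two-sided, with Benjamini-Hochberg adjustment over 11964 genes (4 residual and 6.02 prior degrees of freedom). Figures used matplotlib 3.10.9, pandas 2.3.3 and Python 3.11.15. In simulated arrays with 100 of 11964 genes changed by 1.5 and 100 by 2.5 on the log2 scale, 95 and 98 were called in the Irf8KO step, and 83 and 95 in its difference from WT. Among the unchanged genes, 2 and 3 were called. The simulation counted every gene as detected and held no slide effect or general shift, so it does not cover those features of the real arrays.

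Gene lists, 30 in all, were described by counts and medians, with no set test. Named genes were the 12 largest called changes per direction detected on all 4 arrays, the 6 largest bounds per direction, up to 6 called members per list and members of described lists, the 8 largest differences from WT per direction detected on all 8 arrays, and a fixed set of factors, receptors and sex-linked transcripts. The members and lists were chosen with earlier results of these data known. Replicate numbers were not taken as pairs: deviations of same-numbered MDP and cMoP arrays from their group means correlated at 0.0024 in Irf8KO and 0.0067 in WT. Alternatives were the scaling, background correction, filters, floor, probe choice, array weights, samples in the fit, replicate block, a 4-fold threshold, rank percentiles and leaving out each array.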

Additional observations from a re-analysis of the deposited data

Results flagged for a closer look

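The step from MDP to cMoP differed between Irf8KO and WT, by limma's test of the difference itself, for 69 named genes, 32 of them with a more positive change in Irf8KO and 37 with a more negative one. The values below are the Irf8KO change minus the WT change on the log2 scale, and no explanation was tested. For genes not well above background in any of the groups compared, the difference includes a level that is only a bound, so its size is not exact. Among these were Ltf, Camp, Ngp and Il1r2 in Irf8KO MDPs, and Lgmn, Il7r and Klrd1 in Irf8KO cMoPs.

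Among late neutrophil genes the differences were 5.21 for Ltf, 5.20 for S100a9, 4.45 for Camp, 3.62 for Ngp, 3.04 for Wfdc21, 1.88 for Lcn2, 1.74 for Chil3, 1.35 for Pglyrp1, 1.28 for Cd177, 1.04 for Cxcr2 and -2.28 for Mmp8. For granulocyte factors and receptors they were 2.63 for Il1r2, 2.39 for Cebpe and 1.21 for Gfi1. In the basophil, mast cell and eosinophil list they were 6.31 for Ear2, 5.99 for Prg2, 4.02 for Ear1, 3.098 for Cpa3, 2.57 for Fcer1a, 1.78 for Mcpt8, 1.47 for Epx and 1.08 for Siglecf. Prg2, Ear1, Cpa3 and Fcer1a were not well above background on any Irf8KO array, so their Irf8KO step lies between unmeasured levels and their differences carry the size of the fall in WT. The Irf8KO change of Ear2 was 0.20 with a common floor and -0.42 after normexp correction. For red cell genes and their regulators the differences were 3.00 for Hba-a2, 2.27 for Car1 and 1.41 for Gfi1b. Other positive values were 2.48 for Mogat2, 2.41 for Cdkn1c, 2.06 for Gpr84, 2.00 for Gsn, 1.81 for Vat1, 1.38 for Lss, 1.37 for Hspa1a and 1.01 for Cd63.

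Among monocyte, lysosomal and sensing genes the differences were -4.38 for Lgmn, -2.87 for Cx3cr1, -2.34 for Irf5, -1.999 for Ctss, -1.72 for Slc11a1, -1.36 for Klf4, -1.19 for Ly86 and -1.08 for Ly96. For progenitor genes they were -2.47 for Meis1, -1.77 for Cd34, -1.60 for Egfl7, -1.24 for Hoxa7 and -1.01 for Flt3. For lymphoid and platelet genes they were -4.82 for Il7r, -3.04 for Klrd1, -2.89 for Dntt, -2.22 for Pf4, -1.92 for Cd72 and -1.43 for Vpreb1. For other factors and surface proteins they were -3.44 for Itgb7, -3.27 for S100a4, -3.11 for Plxnb2, -2.70 for Irf4, -2.09 for Tspan13, -1.56 for Klf2 and -1.39 for Ifi27l2a. The remaining values were -4.42 for Klhl30, -3.02 for both Ppfia4 and Cox6a2, -2.86 for Pdzd4, -2.63 for Phlda3, -2.13 for Khdrbs3, -1.85 for Jakmip1, -1.68 for Kcng1, -1.67 for Epb41l4b and -1.57 for Tbx22.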

How the results depend on the processing

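Counts of rises in the Irf8KO step (929) became 491 with array median scaling, 1810 with the percentile over detected probes, 523 after normexp, 406 among genes detected on all arrays, 597 with a common floor, 287 at 4-fold and 1646 when centred on the median of tested genes, which was chosen after seeing the data. Falls (2606) became 6004, 800 and 872 under the first 3 of these, 1330 with quantile normalization, 340 at 4-fold and 930 when centred. Positive differences from WT (235) became 103 among genes detected on all 8 arrays and 68 at 4-fold, and negative ones (254) became 451 with array median scaling, 121 after normexp, 131 and 79. The cause was not tested. Leaving out each array gave 899 to 1041 rises, 2552 to 2807 falls, 193 to 304 positive and 220 to 396 negative differences. With the replicate block the counts were 929, 2608, 224 and 245, and no named call changed. Of 160 named genes called in the step, 7 changed sign after normexp, namely Il1r2 (-0.34), Cdkn1c (-0.045), Lss (-0.44), Ear2 (-0.42), Hba-a2 (-0.44), Car1 (-0.15) and Hspa1a (-0.41). With the mean of probes, Siglech was at -1.10 and Car1 at -0.027. Rank percentiles changed the sign of 0 of the 160 named genes called in the step, and signs of uncalled genes were not compared. Dim probes limit the low-signal genes, whose level in the lower group is only a bound.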
